A study of Mus musculus with 9 samples.

Results

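The 10 genes described here encode the proteins that write, erase and read cytosine methylation: the DNA methyltransferases Dnmt1, Dnmt3a, Dnmt3b and Dnmt3l, the maintenance cofactors Uhrf1 and Hells, the oxidases Tet1, Tet2 and Tet3, and the methyl-CpG reader Mbd2. They were taken by gene symbol from the table of 27207 genes. All 10 were present, and 9 had enough counts to be tested among the 19374 genes tested. Dnmt3l, with 3 to 11 reads per library, did not.

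RNA was sequenced from whole mouse lungs of E18.5 embryos in 3 groups of 3 libraries. The strong CKO and the weak CKO lungs carried 3 alleles. Tbx4-rtTA makes the inducible activator rtTA under Tbx4 control, Tet-O-Cre is the Cre that rtTA turns on, and Dnmt1-D/D is the labels' name for the Dnmt1 genotype of the conditional knockout (CKO). The strong CKO lungs (MUT_S_265_5, MUT_S_268_4 and MUT_S_860_3) were small and bled throughout the parenchyma. The weak CKO lungs (MUT_W_265_2, MUT_W_268_3 and MUT_W_549_3) were small without bleeding. The third group (WT_265_1, WT_268_1 and WT_549_2) was wild type. The Tbx4 driver is known for acting in lung mesenchyme, and a whole-lung library holds RNA of all lung cells; which cells lost Dnmt1 in these lungs was not measured. The sources used here do not say when Cre was induced, how many litters were used or whether wild type lungs carried a transgene. The libraries are therefore treated as separate samples, and their spread, which may be partly technical, is all that a p-value here weighs.

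In a dividing cell, replication leaves each methylated CpG with a methyl group on the old strand only. Uhrf1 recognises this state and brings in Dnmt1, which methylates the new strand, while Hells, a chromatin remodeller, is needed for normal methylation of much of the genome. Dnmt3a and Dnmt3b place methylation on unmethylated DNA, Dnmt3l is a catalytically inactive partner of theirs best known from germ cells. The Tet enzymes oxidise methylcytosine on the way to its removal, and Mbd2 binds methylated CpGs and is linked to gene repression.

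Column totals ran from 25607595 to 33156732 counts. Along the first principal component of all tested genes, which held 59.1% of the variance, the CKO libraries lay between 14.4 and 49.4 and the wild type libraries between -76.0 and -66.5. The listed epithelial, mesenchymal and endothelial markers (8 each) were detected in every library. Levels between genes are compared as normalised RPKM, that is, TMM-normalised CPM (counts scaled to library size) divided by the merged exon length in kilobases.

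The starts of these genes differ in how much methylatable sequence they hold. RefSeq (GRCm38.p6) gave 16 promoter windows for 9 of the 10 genes, each running from 250 bases before to 50 bases after a transcription start. They held 2 to 57 CpGs per 300 bases, against a median of 7 (interquartile range 3 to 20) over 32851 windows of the genome. Tet2 had the richest window, with 57 CpGs, whereas the 3 Dnmt3l windows held 6, 4 and 3. The Dnmt3b window held 30, the Dnmt1 windows 2, 12 and 33, and the Dnmt3a windows 46, 47 and 18. Whether CpG number goes with RNA level was not tested. The next stretches are shown because they belong to the least and to one of the most expressed methyltransferase genes. They lie before a start of Dnmt3l (chr10:78042136-78042286, plus strand, 4 CpGs in 151 bases) and of Dnmt3a (chr12:3806730-3806979, plus strand, 38 CpGs in 250 bases), with every CpG in capitals.
Dnmt3l: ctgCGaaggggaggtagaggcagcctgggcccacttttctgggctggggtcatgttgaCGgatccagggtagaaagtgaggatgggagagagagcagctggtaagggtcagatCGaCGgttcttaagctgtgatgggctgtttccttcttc
Dnmt3a: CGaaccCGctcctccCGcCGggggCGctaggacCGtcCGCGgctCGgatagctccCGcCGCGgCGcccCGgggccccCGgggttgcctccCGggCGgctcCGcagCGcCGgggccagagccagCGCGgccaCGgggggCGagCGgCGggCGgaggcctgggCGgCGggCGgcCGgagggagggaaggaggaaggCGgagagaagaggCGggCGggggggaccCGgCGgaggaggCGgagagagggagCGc

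In wild type lungs the reader Mbd2 was the most abundant of the 10 genes, at 30.3 ± 1.3 normalised RPKM (SD, n = 3), above 92.2% of tested genes. Tet3 followed at 13.6 ± 1.1, Dnmt1 at 13.4 ± 2.8 and Dnmt3a at 12.9 ± 0.86, and the ranges of these neighbours overlapped. Then came Tet2 (7.27 ± 0.69), Uhrf1 (5.82 ± 2.21), Hells (3.16 ± 1.05), Tet1 (2.66 ± 0.20) and Dnmt3b (2.28 ± 0.29). Dnmt3l was last at 0.0859 ± 0.0442. Neighbours in this order were separated beyond their ranges at Mbd2 over Tet3, Dnmt3a over Tet2 and Dnmt3b over Dnmt3l, and at no other step.

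**Figure D1:**
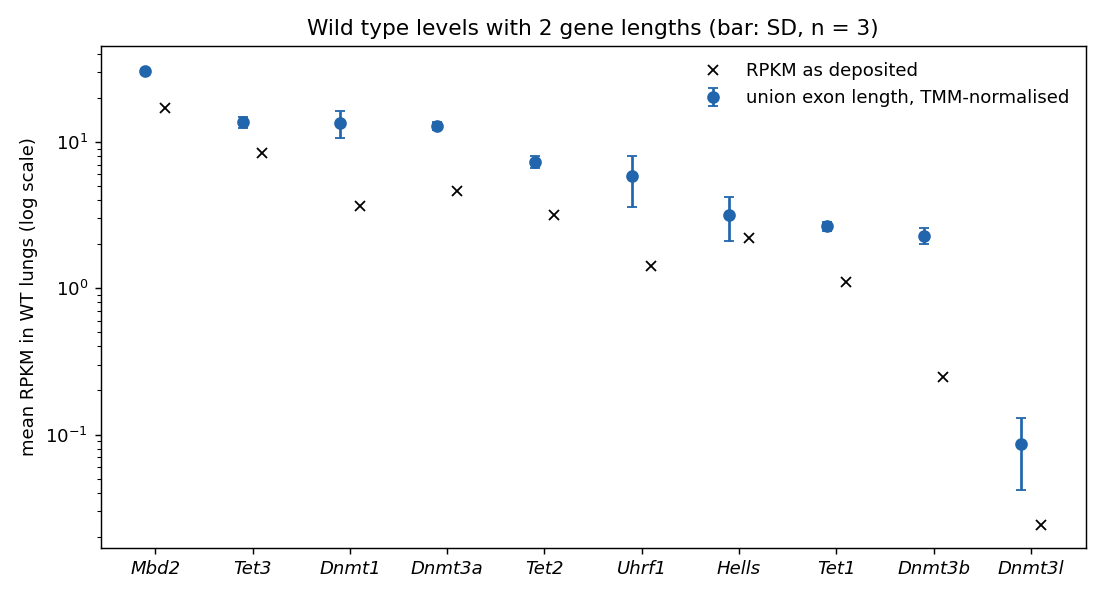
Mean level of the 10 genes in wild type lungs on a log axis, as normalised RPKM over merged exon length (circles, bars are SD, n = 3) and as RPKM in the authors' deposited unit (crosses). Mbd2 leads and Dnmt3l is last on both scales, while Dnmt3b, whose deposited length is 8.35 times its merged exon length, sits much lower on the deposited scale.

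The order depends on the gene length used. The deposited length equalled the summed exon lengths of all transcripts plus 1 base per exon for 96.4% of genes, so a gene with many annotated transcripts has a long deposited length. It was 1.32 times the merged exon length for Hells and 8.35 times for Dnmt3b, against a median ratio of 1.29 over all genes. On the deposited scale Dnmt1 came 4th and Hells 6th among the 10 in wild type lungs, against 3rd and 7th over merged exons. Length cancels in the count test of 1 gene between groups, but not on the log2(RPKM + pseudocount) scales tried as alternatives.

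The comparison of mutant with wild type lungs asks how RNA of these genes differs in lungs of the Dnmt1 conditional knockout genotype. Over both mutant groups together Dnmt1, Tet1 and Mbd2 RNA was lower than in wild type and Hells RNA was higher, while no change was detected for the de novo methyltransferases Dnmt3a and Dnmt3b. In strong CKO against wild type lungs, 1 of the 9 tested genes passed the test as higher (Hells) and 4 as lower (Dnmt1, Tet1, Tet2 and Mbd2; edgeR quasi-likelihood test, Benjamini-Hochberg adjusted p under 0.05), where 25.6% of all tested genes passed, 14.6% as higher and 11.0% as lower. In weak CKO against wild type lungs, 1 of 9 passed, Mbd2 as lower, where 14.5% of all tested genes passed, 9.09% as higher and 5.38% as lower. No gene of the 9 was called higher there; at an unadjusted p under 0.05 there was 1 (Hells), and DESeq2 called 1. Over both CKO groups against wild type, 1 of 9 passed as higher (Hells) and 3 as lower (Dnmt1, Tet1 and Mbd2), where 26.5% of all tested genes passed, 15.1% as higher and 11.5% as lower. The groups did not overlap for 6 of 9 genes in strong CKO, where 41.7% of all tested genes did not, and for 3 of 9 in weak CKO lungs, where 31.4% did not. All 6 CKO libraries lay to 1 side of wild type for 3 of 9 genes, where 26.3% of all tested genes did so. The median log2 change of the 9 genes was -0.21 in strong CKO and -0.08 in weak CKO lungs against wild type, beside medians of -0.00 and -0.01 over all tested genes.

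**Figure D2:**
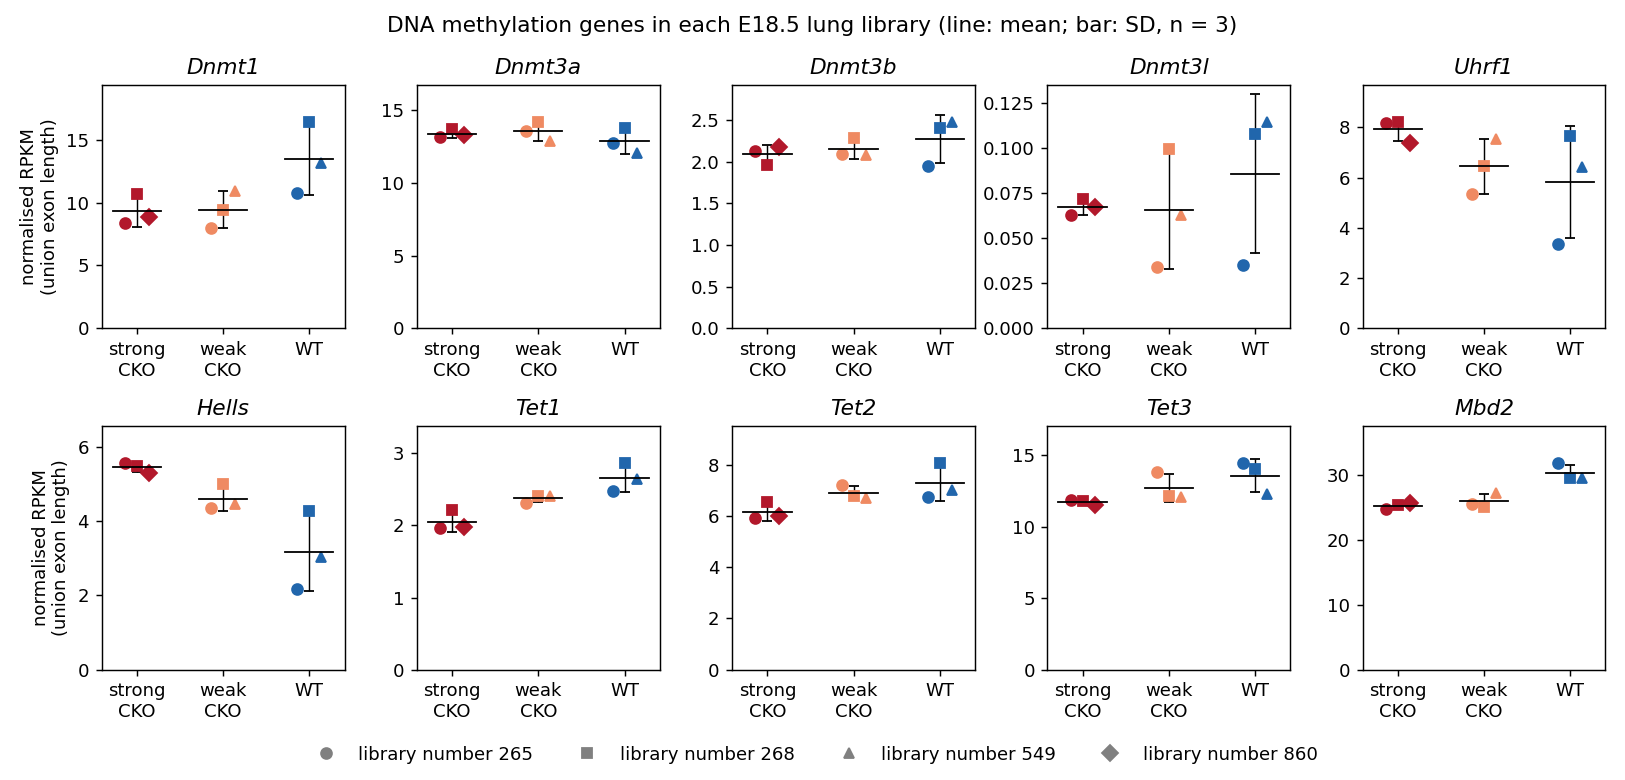
Normalised RPKM of each of the 10 genes (y axis) in the strong CKO, weak CKO and WT libraries (x axis), each axis starting at 0. Points are libraries, marker shapes give the library number, lines are means and bars SD (n = 3). All 6 CKO libraries lie above the 3 WT libraries for Hells and below them for Tet1 and Mbd2, while Dnmt3a and Dnmt3b overlap.

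Dnmt1 (Ensembl ENSMUSG00000004099, chr9:20907209-20959888, minus strand, GRCm38), the targeted gene, had 8.40, 10.67 and 8.83 normalised RPKM in the strong CKO libraries, 8.01, 9.37 and 10.9 in the weak CKO libraries, and 10.72, 16.4 and 13.2 in the wild type libraries. All 3 strong CKO values lay below the wild type values, by a narrow margin (1646, 2207 and 1948 reads in strong CKO, against 2267, 3745 and 3124 in wild type), and the highest weak CKO library overlapped the lowest wild type one. Dnmt1 fell in strong CKO lungs by 30.8% (log2 change -0.53 ± 0.17 SE, 95% interval -0.90 to -0.16, edgeR adjusted p = 0.0433). The weak CKO change was of like size (-0.51 ± 0.17) and did not pass (edgeR adjusted p = 0.0727). Over both CKO groups together Dnmt1 fell by 0.52 ± 0.14 on the log2 scale (edgeR adjusted p = 0.0235). CKO lungs averaged 69.1 CPM and wild type lungs 99.1 CPM. The counts are summed over all exons, so reads from undeleted cells and from exons outside the deleted part cannot be told apart. Fewer cells of a type and less RNA per cell cannot be told apart in bulk samples.

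The Dnmt1 call rested on single libraries. In strong CKO against wild type it was lost, with log2 changes of -0.36 to -0.54 (edgeR adjusted p = 0.0694 to 0.152), when WT_268_1, WT_549_2, MUT_W_268_3, MUT_S_265_5 or MUT_S_860_3 was left out, and under upper quartile factors, no count filter, a fit of only those groups or a test on deposited RPKM (edgeR or limma adjusted p = 0.0537 to 0.0694). The change over both CKO groups was lost without the same 5 libraries (-0.35 to -0.53, edgeR adjusted p = 0.0506 to 0.1). The weak CKO change passed without WT_265_1 (-0.65, edgeR adjusted p = 0.0264), without MUT_W_549_3 (-0.63, edgeR adjusted p = 0.04998) and with DESeq2 (-0.52, adjusted p = 0.0167). With the number in the library names as a block it also passed (-0.50, edgeR adjusted p = 0.00867), though what these numbers mark is not stated.

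Hells (ENSMUSG00000025001, chr19:38930915-38971051, plus strand), the chromatin remodeller, had 5.55, 5.48 and 5.29 normalised RPKM in the strong CKO libraries, 4.35, 4.98 and 4.46 in the weak CKO libraries, and 2.18, 4.26 and 3.03 in the wild type libraries. No CKO library overlapped the wild type range, and the strong CKO libraries all lay above the weak CKO ones. Hells rose 1.72-fold in strong CKO lungs (95% interval 1.27 to 2.33, log2 change 0.78 ± 0.19, edgeR adjusted p = 0.0163) and by 0.66 ± 0.17 on the log2 scale over both CKO groups (edgeR adjusted p = 0.0191). In weak CKO lungs the value was 0.54 ± 0.19 and did not pass (edgeR adjusted p = 0.0958). The strong CKO call was lost without WT_549_2 (0.76, edgeR adjusted p = 0.0584) or MUT_S_265_5 (0.77, edgeR adjusted p = 0.0531), and that over both groups without WT_549_2 (0.63, edgeR adjusted p = 0.0775). The weak CKO value passed without WT_268_1, the wild type library with the most Hells (0.82, edgeR adjusted p = 0.00548), and with DESeq2 (0.54, adjusted p = 0.0356).

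Uhrf1 (ENSMUSG00000001228, chr17:56303321-56323486, plus strand), which recruits Dnmt1 to replicated DNA, had 8.15, 8.21 and 7.38 normalised RPKM in strong CKO, 5.35, 6.46 and 7.55 in weak CKO, and 3.37, 7.66 and 6.44 in wild type lungs. The groups overlapped, and the wild type libraries alone spanned more than the distance between the group means (coefficient of variation 38.0% in wild type, 5.86% in strong CKO). The log2 change was 0.44 ± 0.26 in strong CKO lungs (95% interval -0.15 to 1.03, edgeR adjusted p = 0.251) and 0.15 ± 0.26 in weak CKO lungs. Without WT_265_1, the library with the least Uhrf1, the weak CKO value was -0.13.

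For the de novo methyltransferases no change was detectable at this spread. Dnmt3a (ENSMUSG00000020661, chr12:3806007-3914443, plus strand) had 13.2, 13.7 and 13.3 normalised RPKM in strong CKO, 13.6, 14.2 and 12.9 in weak CKO, and 12.7, 13.8 and 12.1 in wild type lungs, 3 overlapping ranges. Its 95% interval for strong CKO against wild type, -0.09 to 0.20 on the log2 scale, leaves room for a rise of up to 15.3% or a fall of up to 5.96%. Dnmt3b (ENSMUSG00000027478, chr2:153649450-153687730, plus strand) had 1.96 to 2.18 normalised RPKM in strong CKO, 2.08 to 2.28 in weak CKO and 1.95 to 2.47 in wild type lungs, with log2 changes of -0.12 ± 0.11 in strong CKO (95% interval -0.38 to 0.13) and -0.08 ± 0.11 in weak CKO lungs. Reads of Dnmt3a may include some of its antisense gene Dnmt3aos, since the strandedness of the libraries was not stated.

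Dnmt3l (ENSMUSG00000000730, chr10:78041947-78063622, plus strand) was near the limit of detection throughout. It had 5, 6 and 6 reads in strong CKO, 3, 10 and 6 in weak CKO, and 3, 10 and 11 in wild type lungs. Pooled within a group this was 0.206 CPM in strong CKO (95% exact Poisson interval 0.120 to 0.330, counting error only), 0.202 in weak CKO (0.121 to 0.315) and 0.253 in wild type (0.162 to 0.377). The intervals overlap. In the same libraries 8 of 10 tested germ cell and pluripotency genes rose in strong CKO lungs (14.6% of all tested genes did) and 7 of 10 in weak CKO lungs (9.09% of all). That list was chosen with earlier results of these data known, so its counts are descriptive only. One of its genes, the germ cell RNA-binding protein gene Dazl, had 65.2 ± 12 normalised RPKM in strong CKO, 52.9 ± 13 in weak CKO and 0.0657 ± 0.0097 in wild type lungs (SD, n = 3 each). Dnmt3l shares exonic bases with Aire on the opposite strand, so its few reads are not certain to be its own.

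Of the oxidases, Tet1 (ENSMUSG00000047146, chr10:62804570-62908996, minus strand) had the largest change. It had 1.96, 2.21 and 1.97 normalised RPKM in strong CKO, 2.32, 2.40 and 2.40 in weak CKO, and 2.47, 2.86 and 2.64 in wild type lungs. The 3 groups did not overlap, with strong CKO lowest and wild type highest. Tet1 fell by 0.38 ± 0.08 on the log2 scale in strong CKO lungs (23.0% lower, 95% interval 13.2% to 31.7%, edgeR adjusted p = 0.00597), a call kept in all 18 alternative analyses (adjusted p at most 0.0353), and by 0.27 ± 0.07 over both CKO groups (edgeR adjusted p = 0.0136). The call over both groups was lost without WT_268_1 (-0.21, edgeR adjusted p = 0.0625) and on deposited RPKM, as log2(RPKM + 0.1) (-0.23, limma adjusted p = 0.0688) and as log2(RPKM + 1) (-0.13, limma adjusted p = 0.0639). The weak CKO value was -0.16 ± 0.08 (edgeR adjusted p = 0.198).

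Tet2 (ENSMUSG00000040943, chr3:133463679-133545139, minus strand) had 5.91, 6.56 and 5.99 normalised RPKM in strong CKO, 7.21, 6.77 and 6.69 in weak CKO, and 6.75, 8.06 and 7.01 in wild type lungs. The strong CKO libraries were lowest, without overlap with either group, and weak CKO overlapped wild type. Tet2 passed in strong CKO lungs at -0.24 ± 0.08 on the log2 scale (edgeR adjusted p = 0.0429), but lost that call when any of WT_268_1, WT_549_2, MUT_W_265_2, MUT_W_268_3, MUT_W_549_3, MUT_S_265_5 or MUT_S_860_3 was left out (-0.16 to -0.27, edgeR adjusted p = 0.0525 to 0.157). Tet2 shares exonic bases with Gm42567 on the opposite strand, whose reads could be counted with it. Tet3 (ENSMUSG00000034832, chr6:83362373-83459084, minus strand) had 11.9, 11.8 and 11.5 normalised RPKM in strong CKO, 13.9, 12.1 and 12.1 in weak CKO, and 14.5, 14.02 and 12.3 in wild type lungs. Its log2 change in strong CKO lungs was -0.21 ± 0.08 and did not pass (edgeR adjusted p = 0.0727), although the groups did not overlap. Without WT_549_2 it was -0.28 and passed (edgeR adjusted p = 0.026), as did the value over both CKO groups (-0.22, edgeR adjusted p = 0.0412).

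Mbd2 (ENSMUSG00000024513, chromosome 18), the methyl-CpG reader, had 24.7, 25.3 and 25.7 normalised RPKM in strong CKO, 25.6, 25.01 and 27.2 in weak CKO, and 31.8, 29.6 and 29.5 in wild type lungs. The mutant libraries were all below the wild type ones, and the mutant groups overlapped each other. Mbd2 fell by 0.26 ± 0.06 on the log2 scale in strong CKO lungs (16.7% lower, edgeR adjusted p = 0.00896), by 0.22 ± 0.06 in weak CKO lungs (edgeR adjusted p = 0.0306) and by 0.24 ± 0.05 over both (edgeR adjusted p = 0.00593). The strong CKO call was kept in all 18 alternative analyses (adjusted p at most 0.0423). The weak CKO call was lost when any of WT_265_1, WT_549_2, MUT_W_265_2, MUT_W_268_3, MUT_S_268_4 or MUT_S_860_3 was left out (-0.19 to -0.24, edgeR adjusted p = 0.0501 to 0.131), and without a count filter or in a fit of only those groups.

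**Figure D3:**
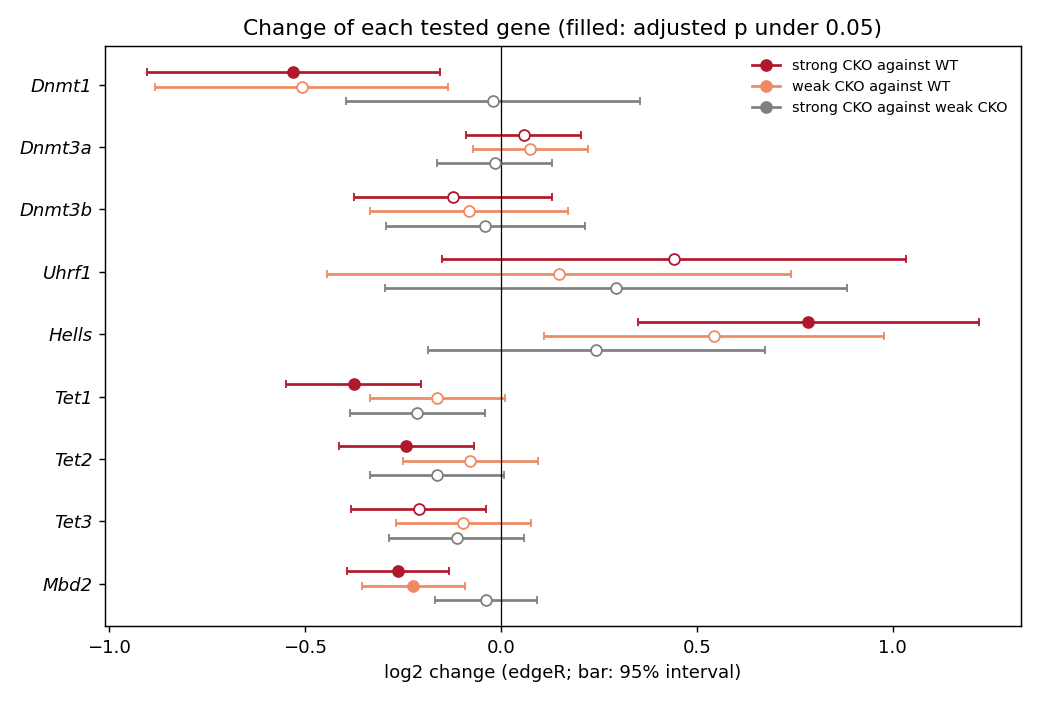
Log2 change with its 95% interval (x axis, edgeR) of the 9 tested genes (y axis) in strong CKO against WT, weak CKO against WT and strong CKO against weak CKO, filled where the adjusted p was under 0.05. Filled points are Dnmt1, Hells, Tet1, Tet2 and Mbd2 in strong CKO and Mbd2 in weak CKO lungs, and none between the mutant groups.

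Between the mutant groups, which differ in haemorrhage, none of the 9 genes passed, where 1 of all 19374 tested genes (0.00516%) did with edgeR. DESeq2 called none of the 9, and at an unadjusted p under 0.05 there was 1 (Tet1). The log2 changes of strong CKO against weak CKO lungs were -0.02 for Dnmt1 (95% interval -0.40 to 0.35), -0.21 for Tet1 (-0.39 to -0.04), -0.16 for Tet2 (-0.33 to 0.01), 0.24 for Hells (-0.19 to 0.67) and 0.29 for Uhrf1 (-0.30 to 0.88). Without overlap, Hells was higher and Tet1, Tet2 and Tet3 were lower in strong CKO than in weak CKO lungs, 4 of 9 genes where 13.4% of all tested genes had groups that did not overlap. The pair of comparisons with wild type shares its wild type libraries, so their values are given side by side only.

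Dnmt1, Uhrf1 and Hells are all known to be most active in cells that replicate DNA, and were set beside a list of 20 S phase and proliferation genes, such as the Mcm helicase subunits and the proliferation markers Mki67 and Top2a. None of the 20 passed in either comparison with wild type (edgeR; at an unadjusted p under 0.05 there was 1 higher in strong CKO and 0 in weak CKO lungs; DESeq2 called 1 and 0). Of all tested genes, 25.6% passed in strong CKO and 14.5% in weak CKO lungs. The median log2 change of the 20 was 0.23 in strong CKO and 0.01 in weak CKO lungs, beside -0.001 and -0.008 over all tested genes. Mki67 had log2 changes of 0.04 ± 0.16 in strong CKO and -0.09 ± 0.16 in weak CKO lungs, and Top2a of 0.22 ± 0.17 and 0.03 ± 0.17. Without WT_268_1 Top2a passed in strong CKO lungs (0.46, edgeR adjusted p = 0.0215). The summed level of the list ran from 1112 to 1304 CPM in strong CKO, 884 to 1190 CPM in weak CKO and 830 to 1340 CPM in wild type lungs. Within wild type, WT_265_1 was lowest and WT_268_1 highest, and these were also the lowest and the highest wild type libraries for Dnmt1, Uhrf1 and Hells. Within the CKO groups Hells and the list were both lowest in MUT_S_860_3 and MUT_W_265_2. Hells was highest in MUT_S_265_5 and MUT_W_268_3, whereas the list was highest in MUT_S_268_4 and MUT_W_549_3. The strong CKO libraries differed little in Hells (38.1 to 40.0 CPM).

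**Figure D4:**
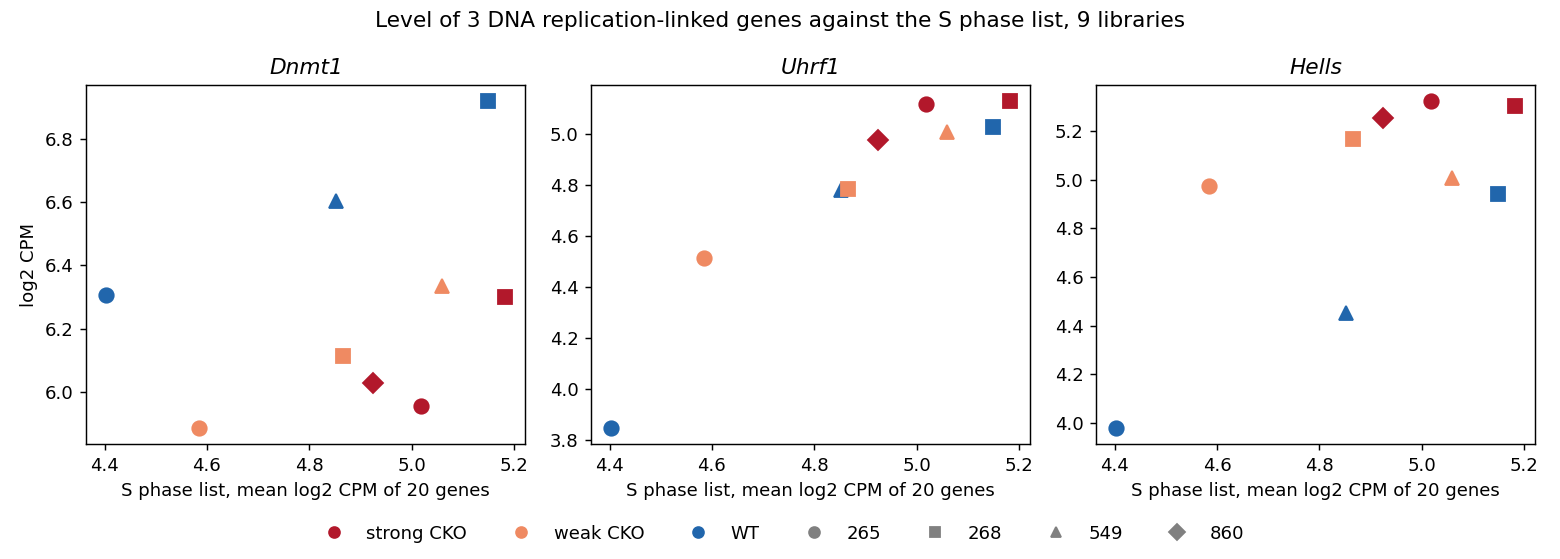
Log2 CPM of Dnmt1, Uhrf1 and Hells (y axes) against the mean log2 CPM of the 20 S phase and proliferation genes (x axis) in the 9 libraries, coloured by group, with marker shapes for library numbers. Uhrf1 libraries of all groups lie along one band, Dnmt1 of the CKO libraries lies below the WT libraries of like S phase level, and Hells of the CKO libraries lies above them.

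Pooled over the groups, the Pearson correlation of the deviations of Dnmt1 and Uhrf1 from their group means was 0.85 over the 9 libraries, while it was 0.09 without removing the group means. For Uhrf1 and Hells these correlations were 0.88 and 0.84. The libraries had the same order for Dnmt1 and Uhrf1 within wild type and within weak CKO, but not within strong CKO. There, Dnmt1 was lowest in MUT_S_265_5 (62.0 CPM) and Uhrf1 in MUT_S_860_3 (31.4 CPM). The highest value within groups was that of Dnmt1 and Tet1, at 0.90 (0.82 without removing the group means). These are descriptions over 9 libraries from one deposited table, chosen from 36 pairs. The genes most like Uhrf1 over the 9 libraries, of 13093 compared, were Cdca2 (r = 0.985), Mms22l (0.983) and Wdhd1 (0.982); those most like Dnmt1 were Zfp207 (0.979), Cubn (0.971) and Kazn (0.970).

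Dnmt1 was also set against these genes within each library. There were 1.79, 2.25 and 2.07 Dnmt1 reads per Uhrf1 read in strong CKO, 2.59, 2.51 and 2.51 in weak CKO, and 5.52, 3.71 and 3.55 in wild type libraries. Dnmt1 reads per Hells read were 1.55, 1.99 and 1.71 in strong CKO, 1.88, 1.92 and 2.51 in weak CKO, and 5.04, 3.94 and 4.45 in wild type libraries. The CPM of Dnmt1 over the geometric mean CPM of the S phase list was 1.91, 2.17 and 2.15 in strong CKO, 2.47, 2.37 and 2.42 in weak CKO, and 3.74, 3.41 and 3.37 in wild type libraries. On each of these 3 measures all 6 CKO libraries lay below all 3 wild type libraries, and on the first and last the strong CKO libraries also lay below the weak CKO ones. Dnmt1 itself was alike in the mutant groups (68.6 CPM in strong CKO, 69.6 in weak CKO). The genes it was divided by stood higher in strong CKO lungs, without passing. Uhrf1 averaged 33.7 CPM there and 27.5 in weak CKO, and the S phase list had a median log2 change of 0.19 between the mutant groups.

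**Figure D5:**
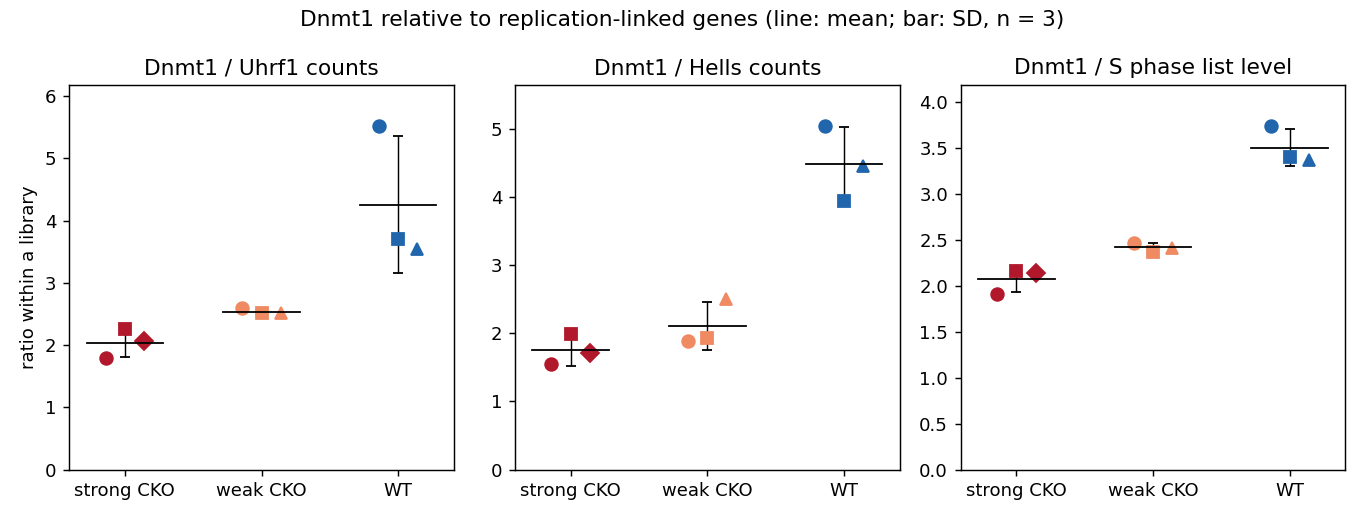
Dnmt1 counts per Uhrf1 count, Dnmt1 counts per Hells count, and Dnmt1 CPM over the geometric mean CPM of the S phase list (y axes, from 0) in the strong CKO, weak CKO and WT libraries. Points are libraries, lines means and bars SD (n = 3); the CKO libraries lie below every WT library in all 3 panels.

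The mean log2 ratio of both CKO groups to wild type was -0.88 for Dnmt1 over Uhrf1, -1.22 for Dnmt1 over Hells, -0.65 for Dnmt1 over the S phase list and 0.58 for Hells over that list. Each gave a two-sided exact permutation p of 0.0238, the smallest that 6 against 3 libraries allow. Adjusted over the 9 ratios computed, p was 0.0536 in this exact test, which does not pass. The other 5 ratios overlapped between groups: Uhrf1 over the S phase list had a log2 difference of 0.23, Hells over Uhrf1 0.35, Dnmt1 over Dnmt3a -0.58, Dnmt1 over Tet3 -0.36 and Dnmt1 over Mbd2 -0.26 (exact permutation p = 0.0476 to 0.19). With a wild type library left out, 6 against 2 cannot go below an exact permutation p of 0.0714, and the log2 differences of the first 4 ratios stayed at -0.68 to -0.996, -1.14 to -1.31, -0.60 to -0.67 and 0.54 to 0.65. The ratios were chosen after the values had been seen, and Dnmt1 over Hells holds the higher Hells level of the CKO lungs as well as the lower Dnmt1 level. Likewise, Dnmt1 over Uhrf1 holds the Uhrf1 level, whose log2 change over both CKO groups was 0.29 and did not pass (edgeR adjusted p = 0.38).

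In a separate fit, also chosen after the values had been seen, the mean log2 CPM of the S phase list was a covariate in edgeR for all 19374 genes, with a slope estimated for each gene. Dnmt1 was then lower by 0.72 on the log2 scale in strong CKO lungs (edgeR adjusted p = 0.000118) and by 0.53 in weak CKO lungs (edgeR adjusted p = 0.000641), and Hells was higher by 0.62 (edgeR adjusted p = 0.00599) and 0.56 (edgeR adjusted p = 0.0103). Uhrf1 did not pass, at 0.19 in strong CKO and 0.16 in weak CKO lungs (edgeR adjusted p = 0.218 and 0.302). Between strong CKO and weak CKO lungs Dnmt1 stood at -0.19 in that fit (edgeR adjusted p = 0.599). The covariate was measured in the same 9 libraries, and its genes had a median log2 change of 0.23 in strong CKO lungs. Within wild type it ran from 4.40 in WT_265_1 to 5.15 in WT_268_1. The adjusted p values of that fit are therefore not read as firmer than those of the main fit.

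E2F factors, known for activating genes at the entry to S phase, bind sites of the kind TTTCCCGC, TTTCGCGC, TTTGCCGC or TTTGGCGC. These 4 strings of 8 letters, searched on both strands, occurred in 3 of the 16 windows of these genes, against 2.26% (744) of all 32851 windows. Counted by gene, 3 of the 9 genes with a window had a match (Dnmt1, Uhrf1 and Hells). A gene with several windows has more chances, no share by gene was computed over all genes, and the search was chosen after the values had been seen. Each string holds a CpG, and the matching windows were rich in CpGs (33 for Dnmt1, 33 for Uhrf1 and 34 for Hells, against the median of 7). How often windows of like CpG number hold a match was not computed. The matches are shown with flanks on the gene's strand, the matched letters in capitals (in the first Dnmt1 line, the reverse complement of TTTCGCGC). They lie at chr9:20952824-20952853 (minus strand, first matched base at -219 from the start) and chr9:20952574-20952603 (minus strand, first matched base at 34, the start base counted as 1) for Dnmt1, chr17:56304117-56304146 (plus strand, -185) for Uhrf1 and chr19:38930917-38930946 (plus strand, -62) for Hells.
Dnmt1: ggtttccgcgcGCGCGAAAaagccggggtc
Dnmt1: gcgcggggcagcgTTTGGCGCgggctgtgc
Uhrf1: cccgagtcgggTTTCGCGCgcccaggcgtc
Hells: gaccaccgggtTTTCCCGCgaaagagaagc

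Other genes of the pathway were read from lists of related functions, whose counts stand beside the shares of all tested genes called, 14.6% higher and 11.0% lower in strong CKO, and 9.09% higher and 5.38% lower in weak CKO against wild type. Of 9 tested maintenance and targeting partners none passed in either comparison (edgeR; at an unadjusted p under 0.05 there were 2 lower in strong CKO and 0 in weak CKO lungs; DESeq2 called 1 and 0). The replication clamp Pcna had log2 changes of 0.21 ± 0.10 in strong CKO and 0.12 ± 0.10 in weak CKO lungs, and Usp7, a deubiquitinase known to stabilise Dnmt1 and Uhrf1, of -0.07 ± 0.06 in both. Without WT_268_1 Pcna passed in strong CKO lungs (0.34, edgeR adjusted p = 0.0179). Of 10 other methyl-CpG readers, 2 passed as lower in strong CKO lungs (25.6% of all tested genes passed in either direction), Mbd5 (-0.29 ± 0.09) and Zbtb4 (-0.27 ± 0.09; edgeR adjusted p = 0.0437 each), and 0 in weak CKO lungs, where 1 was lower at an unadjusted p under 0.05 and DESeq2 called 0. Both calls were lost without any 1 of WT_265_1, MUT_S_265_5, MUT_S_268_4, MUT_S_860_3 or MUT_W_268_3, the Mbd5 call also without WT_268_1, and the Zbtb4 call also without WT_549_2, MUT_W_265_2 or MUT_W_549_3 (-0.17 to -0.32, edgeR adjusted p = 0.0526 to 0.17). Mbd3, which resembles Mbd2 but binds methylated CpG poorly in mammals, had log2 changes of 0.08 ± 0.09 in strong CKO and -0.04 ± 0.09 in weak CKO lungs, and Mbd6 of -0.17 ± 0.10 and -0.27 ± 0.10. Without WT_265_1 the weak CKO value of Mbd6 was -0.39 and passed (edgeR adjusted p = 0.00666).

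CXXC-domain proteins, which bind CpGs that carry no methyl group, had members called in both directions. In each comparison 2 of 5 rose and 1 fell, where 25.6% of all tested genes passed in strong CKO and 14.5% in weak CKO. Cxxc5 rose by 0.86 ± 0.10 on the log2 scale in strong CKO (edgeR adjusted p = 0.00021) and 0.63 ± 0.10 in weak CKO lungs (edgeR adjusted p = 0.00208), and Cxxc4, at 0.470 ± 0.067 normalised RPKM in strong CKO, 0.428 ± 0.067 in weak CKO and 0.275 ± 0.045 in wild type lungs (SD, n = 3 each), rose by 0.77 ± 0.18 and 0.64 ± 0.18. Both are known as inhibitors of Wnt signalling. Cxxc1, a subunit of the Set1 histone methyltransferase complexes, fell by 0.31 ± 0.07 in strong CKO and 0.33 ± 0.07 in weak CKO lungs. The strong CKO calls of Cxxc4 (0.66) and Cxxc1 (-0.27) were lost without MUT_S_265_5 (edgeR adjusted p = 0.0537 and 0.0529). The weak CKO call of Cxxc1 was lost without MUT_W_265_2 (-0.30) or MUT_W_268_3 (-0.33; edgeR adjusted p = 0.0556 and 0.0525), and that of Cxxc4 without any 1 wild type library, MUT_W_265_2, MUT_W_268_3, MUT_S_268_4 or MUT_S_860_3 (0.50 to 0.71, edgeR adjusted p = 0.0504 to 0.147).

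Genes that supply methyl groups also had members called in both directions in strong CKO lungs. Mtr, methionine synthase, which remakes methionine from homocysteine, had 6.07 ± 0.40 normalised RPKM in strong CKO, 6.47 ± 0.11 in weak CKO and 9.70 ± 0.13 in wild type lungs (SD, n = 3 each), without overlap between mutant and wild type. It fell by 0.68 ± 0.06 on the log2 scale in strong CKO (edgeR adjusted p = 6.54e-05) and 0.58 ± 0.06 in weak CKO lungs (edgeR adjusted p = 0.000234), calls kept in all 18 alternative analyses. Mat2a, which makes the methyl donor S-adenosylmethionine, fell by 0.29 ± 0.07 in strong CKO and 0.32 ± 0.07 in weak CKO lungs (edgeR adjusted p = 0.0113 and 0.0124). These calls were lost without MUT_S_265_5 (-0.27, edgeR adjusted p = 0.0546), and without MUT_W_265_2 or MUT_W_268_3 (-0.29 and -0.33, edgeR adjusted p = 0.0575 and 0.0514). Of the 9 genes, 2 fell in each comparison (11.0% of all tested genes did in strong CKO and 5.38% in weak CKO), and 2 rose in strong CKO lungs (14.6% of all): Shmt1 (0.45 ± 0.12, edgeR adjusted p = 0.0166) and Shmt2 (0.23 ± 0.08, edgeR adjusted p = 0.0488), which feed carbon units from serine into folate. Shmt1 lost its call without WT_268_1, WT_549_2 or MUT_S_265_5 (0.39 to 0.42, edgeR adjusted p = 0.0558 to 0.0608), and Shmt2 without any library other than WT_265_1 or MUT_S_268_4 (0.20 to 0.24, edgeR adjusted p = 0.0617 to 0.152). Of 11 tested genes of base excision and deamination, which complete active demethylation, 1 rose in each comparison: Gadd45a, a stress-induced gene, by 0.46 ± 0.12 in strong CKO and 0.41 ± 0.12 in weak CKO lungs (edgeR adjusted p = 0.0164 and 0.0422). The strong CKO call of Gadd45a was lost without MUT_S_860_3 (0.42, edgeR adjusted p = 0.058), and the weak CKO call without any 1 library other than MUT_W_549_3 (0.34 to 0.44, edgeR adjusted p = 0.0508 to 0.16). Between strong CKO and weak CKO lungs no gene of any of these lists passed (edgeR; 1 gene at an unadjusted p under 0.05, in the CXXC list; DESeq2 called 0).

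Markers of the lung's cell types were called in the same comparisons, in which 11.0% of all tested genes fell and 14.6% rose in strong CKO, and 5.38% fell and 9.09% rose in weak CKO. Of 8 mesenchymal markers 6 fell and 1 rose in strong CKO lungs, and 4 fell and 1 rose in weak CKO lungs. Their summed level, which abundant markers dominate, was 3846 to 4332 CPM in strong CKO, 3882 to 4146 in weak CKO and 3434 to 4169 in wild type lungs. Their mean log2 CPM, which weighs each marker alike, was 7.42 to 7.65 in strong CKO and 7.55 to 7.89 in weak CKO lungs. In wild type lungs it was higher, at 8.08 to 8.21. Of 8 endothelial markers 8 fell in strong CKO and 4 in weak CKO lungs, with a summed level of 1592 to 1965 CPM in strong CKO, 2102 to 2195 in weak CKO and 2369 to 3033 in wild type lungs. Of 8 epithelial markers 3 fell in strong CKO and 1 in weak CKO lungs, with a summed level of 8338 to 9555 CPM in strong CKO, 10106 to 10706 in weak CKO and 9620 to 13783 in wild type lungs. Of 8 macrophage markers 6 rose in strong CKO and 5 in weak CKO lungs, with a summed level of 303 to 394 CPM in strong CKO, 306 to 372 in weak CKO and 177 to 242 in wild type lungs. None of 9 erythroid markers passed (edgeR; 2 higher in strong CKO and 2 lower in weak CKO lungs at an unadjusted p under 0.05; DESeq2 called 0), and their summed level was 6765 to 12696 CPM in strong CKO, 3778 to 4395 in weak CKO and 3950 to 7402 in wild type lungs. No listed marker was at 0 in any library. The part of these cell type markers in the changes of the methylation genes was not tested. Leaving 11 haemoglobin genes out of the library sizes changed no call among the 9 tested genes.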

How the data were processed

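Whole-lung RNA was read as single reads of 75 nt on TruSeq libraries, per the labels' protocols. The authors deposited 1 table. Its integer columns held raw counts per gene, and the authors deposited RPKM values and a gene length with them. STAR, Trimmomatic 0.36, cutadapt 2.5, FastQC 0.11.8 and edgeR 3.28.1 are the tools, and GRCm38.p6 the build, that the submitters' processing notes name. No source used here names the counting tool or the strandedness, which makes counts of overlapping or paralogous genes uncertain.

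Counts were tested with edgeR 4.0.16 in R 4.3.3 (filterByExpr by group, TMM factors 0.938 to 1.04, robust quasi-likelihood fit of all 9 libraries, 1 mean per group, two-sided, Benjamini-Hochberg over 19374 genes, threshold 0.05). The common biological coefficient of variation was 0.15. Errors of log2 changes are standard errors, and a prior count of 2 entered log2 CPM. Alternatives, 18 in all, used DESeq2 1.42.0, limma 3.58.1 on log2(RPKM + 1) and log2(RPKM + 0.1), other factors, filters and samples. Merged exon lengths came from GENCODE M21 (GRCm38), in which 27197 identifiers were found. The test script was tested on simulated data.

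The members and the 13 gene lists were chosen with earlier results of these data known. Named beside the members were the 3 genes most correlated with Dnmt1 and Uhrf1 (mean log2 CPM of at least 1), and from each list up to 4 called genes, or the 2 most abundant where none was called. A gene that this rule names in the list of methyl group supply is not reported here.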

Additional observations from a re-analysis of the deposited data

How the results depend on the processing

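Of the 6 calls that the 9 tested methylation genes gave in strong CKO or weak CKO against wild type lungs, 2 (Tet1 and Mbd2 in strong CKO) held under all 18 alternatives, and the other 4 were lost under at least 1. Of the 9 tested methylation genes in weak CKO against wild type lungs, DESeq2 and the fit with the S phase level each called 1 higher and 2 lower, the replicate block 2 lower, and both the fit without a count filter and that of only the groups compared 0 lower, where the main count was 0 higher and 1 lower. In strong CKO against wild type, 2 were lower in place of 4 with log2(RPKM + 1) or log2(RPKM + 0.1) as the scale, with upper quartile factors, without a count filter and in the fit of those groups alone. Counts over all genes against wild type are not given here for these settings. A change particular to the 9 genes can therefore not be told from a general change in calls. Between strong CKO and weak CKO, over all genes, DESeq2 called 2 higher and 14 lower, the fit of only those groups 4 lower, the replicate block 3 lower, and log2(RPKM + 0.1) and the S phase level 1 higher each. Why these counts moved was not tested. Leaving out 1 library at a time gave, over all genes, 1937 to 2842 higher and 1164 to 2141 lower in strong CKO against wild type, 966 to 1795 higher and 344 to 1037 lower in weak CKO against wild type, and 0 to 3 higher and 1 to 3 lower between the mutant groups. Of the 9 genes it gave 0 to 1 higher and 2 to 4 lower in strong CKO, 0 to 1 higher and 0 to 2 lower in weak CKO, and 0 to 1 higher and 1 to 3 lower over both.

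The following log2 changes, none of them called with all libraries, crossed 0 when 1 library was left out. In weak CKO against wild type the ranges were -0.13 to 0.40 for Uhrf1, -0.13 to 0.0016 for Tet2, -0.099 to 0.033 for Mbd3, -0.20 to 0.12 for Mki67 and -0.11 to 0.27 for Top2a, and in strong CKO against wild type -0.066 to 0.25 for Mki67. Over both they were -0.13 to 0.18 for Mki67, -0.038 to 0.093 for Mbd3 and -0.011 to 0.37 for Top2a, whose highest value passed (without WT_268_1, edgeR adjusted p = 0.0361), and between strong CKO and weak CKO -0.13 to 0.098 for Dnmt1, -0.051 to 0.021 for Dnmt3a and -0.069 to 0.0061 for Dnmt3b. With the S phase level Mki67 was -0.13 in strong CKO and Mbd3 -0.012 over both, and Mki67 over both was 0.0029 with log2(RPKM + 1) and 0.0035 with log2(RPKM + 0.1).

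Libraries of the groups share numbers in their names. Same-numbered libraries deviated together with correlations of -0.087 to 0.35, and different-numbered libraries of different groups with -0.38 to 0.19. The highest values, 0.35 and 0.30, were both of same-numbered wild type and weak CKO libraries. The other same-numbered values lay within the different-numbered range. Along the second principal component, wild type libraries lay at 39.6, -0.67 and -30.9. The same-numbered weak CKO libraries lay at 26.2, 1.36 and -23.4, and the same-numbered strong CKO libraries at 5.38 and -10.6. What the numbers mark is not stated, so they are not taken to pair the libraries. With library number as a block, Dnmt1 passed in weak CKO (-0.50, edgeR adjusted p = 0.00867) and Tet3 in strong CKO lungs (-0.24, edgeR adjusted p = 0.0434), while the strong CKO calls of Tet2 (-0.24, edgeR adjusted p = 0.066), Zbtb4 (-0.25, edgeR adjusted p = 0.0629), Gadd45a (0.35, edgeR adjusted p = 0.0748) and Shmt2 (0.18, edgeR adjusted p = 0.109) were lost. With that block Dnmt1 between the mutant groups was 0.067 and Mki67 over both groups 0.011. The S phase level and the left-out libraries for ratios were added after the data had been seen. Depth limits Dnmt3l, with 3 to 11 reads per library.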
